A study of Mus musculus with 8 samples.

Results

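The genes of major histocompatibility complex (MHC) class II presentation and their regulator Ciita were examined in mouse microglial nuclei for H3K27ac, the acetylation of lysine 27 on histone H3 that is found at promoters and enhancers in use. The 8 genes were H2-Aa, H2-Ab1, H2-Eb1, Cd74, H2-DMa, H2-DMb1, H2-DMb2 and Ciita. Members were taken as every region of the deposited table whose gene name equals one of these symbols, which gave 57 of 129304 regions and 8 of 18707 genes.

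H3K27ac was profiled by chromatin immunoprecipitation and sequencing in wild-type (WT) C57BL/6 mice and in C57BL/6 mice labelled GrnKO, which lack the progranulin gene Grn. All mice were 2 years old. Per the labels, each replicate was a pool of sorted nuclei from 2 mice, and each genotype had 2 such pools, so the n is 2 in every group below. Nuclei from fixed brain tissue were gated as PU.1+, OLIG2- and NEUN-, a gate that keeps any nucleus with this myeloid factor and is not limited to microglia. Every pool also had an input library of sonicated chromatin without immunoprecipitation. Fewer acetylated nuclei and less acetylation per nucleus cannot be told apart in such pools.

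MHC class II molecules are pairs of an alpha and a beta chain that show peptides from endosomes and lysosomes to CD4 T cells. In the endoplasmic reticulum the pair binds the invariant chain, the product of Cd74, which is later cut away by lysosomal proteases, and H2-DM then exchanges the remaining fragment for antigen peptides. Resting microglia carry little class II on their surface, and interferon gamma raises it through the coactivator CIITA, which docks on a shared set of promoter elements bound by RFX, CREB and NF-Y proteins.

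Those elements are printed for the 4 member promoters that hold them. The regions over them are described below, except for H2-DMb2, where no region covers them. The letters come from RefSeq promoter windows of the GRCm38.p6 build, the patch release of the mm10 assembly named in the submitters' processing notes. A window was present for 5 of 8 members, and none of those windows was for H2-Ab1, Cd74 or Ciita. Capitals mark, in order, a core of the X box (CTNNNAAC), the first TGANG after it, and the Y box (GATTGG), an inverted CCAAT. The marked TGANG directly follows the X core in H2-Eb1 and H2-DMb1 but lies further from it in H2-Aa and H2-DMb2. It was therefore not assigned to the X2 element. Lines run 5′ to 3′ on the strand of the gene.
H2-Aa, chr17:34287859-34287915, minus strand: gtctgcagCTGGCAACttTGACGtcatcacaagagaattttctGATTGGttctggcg
H2-Eb1, chr17:34305765-34305820, plus strand: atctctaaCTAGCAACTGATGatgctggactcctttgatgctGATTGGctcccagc
H2-DMb1, chr17:34153086-34153142, plus strand: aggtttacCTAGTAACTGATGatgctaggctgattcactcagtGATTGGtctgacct
H2-DMb2, chr17:34145115-34145171, plus strand: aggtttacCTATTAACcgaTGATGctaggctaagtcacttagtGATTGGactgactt

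The X core began 84, 94, 97 and 126 bases before the start of H2-Aa, H2-Eb1, H2-DMb1 and H2-DMb2. The gap from X core to Y box was 26 bases in H2-Eb1 and 27 bases in each of the other 3. Searched on both strands over 32851 RefSeq windows of the same length, the X core letters were found in 41.1%, TGANG in 89.4% and GATTGG in 16.1%, so that single matches are common. An X core followed by a Y box 15 to 35 bases downstream on the same strand was found in 0.323% of windows. Neither window of H2-DMa held that arrangement. The letters and the spacing were chosen after these sequences had been seen.

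The H3K27ac libraries held between 15491642.5 and 20030832 tags, of which 49.4% lay in the regions of the table in WT replicate 1 and 63.3% to 65.7% in the other 3. The authors scaled each library to 10000000 tags in total, so WT replicate 1 has less signal per region on that scale. Levels were therefore divided by trimmed mean of M-values (TMM) factors and are called TMM-scaled tags. The choice shifts every difference: the median change over all 15380 tested genes was -0.05 (log2, GrnKO minus WT) after TMM and 0.18 in the authors' scaling. Under limma, 904 genes were lower and 1321 higher after TMM, against 166 lower and 1629 higher in the authors' scaling. At Grn, the targeted gene, the H3K27ac sum over 10 regions was 2291 and 1871 TMM-scaled tags in WT and 157 and 162 in GrnKO, in the direction of the labels.

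After TMM all 8 member genes had a lower mean sum in GrnKO, and 3 passed the test: Cd74, H2-Eb1 and H2-DMb2 (limma on log2 of the TMM-scaled value plus 1, Benjamini-Hochberg adjusted p under 0.05 over all genes). None was called higher. Over all tested genes 5.88% were called lower, 8.59% higher, and 54.1% had a negative change. The median change of the 8 genes was -0.69 (log2), and -0.40 without WT replicate 1. Over all tested genes it was -0.05 and -0.03 in those fits. Of the 8, 5 had both GrnKO pools below both WT pools, an order that 29.4% of all tested genes share, and 0 had both above, as 25.4% do. edgeR called 2 of 8 lower, Cd74 and H2-DMb2, and 5.64% of all tested genes. In the authors' scaling 7 of 8 changes were negative, with a median of -0.46 (log2), beside 0.18 over all tested genes. There 1 gene, Cd74, was called lower, as were 1.08% of all tested genes. Fits that leave out 1 library hold 1 pool in a group. The number of calls moved with the library left out, over all tested genes as among the 8.

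WT replicate 1 was the highest of the 4 libraries in 8 of 8 member sums and in 31 of 45 tested member regions. Over all tested genes that library was highest in 32%, and over all tested regions in 28.4%. GrnKO replicate 2 was the lowest in 6 of 8 member sums. In the authors' scaling WT replicate 1 was highest in 5 of 8 sums, not in H2-DMa, H2-DMb2 or Ciita. After TMM the ratio of WT replicate 1 to WT replicate 2 was 1.01 in H2-DMa and 1.00 in H2-DMb2, beside a median of 1.02 over all tested genes, and between 1.28 and 4.55 in the other 6.

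**Figure D1:**
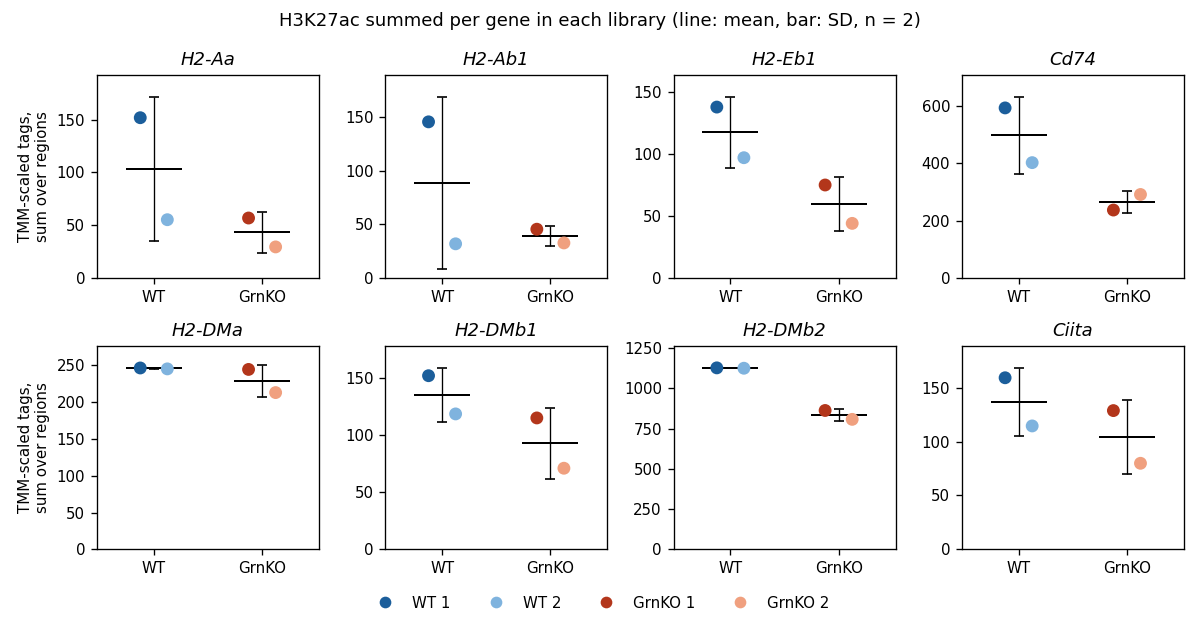
H3K27ac summed over all regions of each member gene, in TMM-scaled tags, one point per library, with the group mean (line) and SD (bar, n = 2). WT replicate 1 stands far above the other 3 libraries in H2-Aa and H2-Ab1, whereas in H2-DMb2 the WT pools coincide and both GrnKO pools lie below them.

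Per region of 800 bp, the WT level was highest at H2-DMb2, with 225 ± 0.33 TMM-scaled tags (SD, n = 2). Cd74 followed with 41.4 ± 11.2, H2-DMb1 with 33.8 ± 5.92 and H2-DMa with 30.7 ± 0.11 TMM-scaled tags per region. The classical chains lay lower, at 20.7 ± 13.6 for H2-Aa, 17.7 ± 16.1 for H2-Ab1 and 16.8 ± 4.12 for H2-Eb1, and Ciita was lowest at 12.4 ± 2.87. Apart from H2-DMb2, neighbours in that order did not differ beyond the spread of their pools. In GrnKO the order was led again by H2-DMb2 (167 ± 7.79), now followed by H2-DMa (28.6 ± 2.78), H2-DMb1 (23.3 ± 7.79) and Cd74 (22 ± 3.19).

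The classical chains are the alpha chain of I-A (H2-Aa), the beta chain of I-A (H2-Ab1) and the beta chain of I-E (H2-Eb1). Summed over its 5 regions, H2-Aa had 152 and 55.3 TMM-scaled tags in WT and 56.9 and 29.5 in GrnKO, in replicate order. The pools overlapped, since WT replicate 2 lay just below GrnKO replicate 1. The means differed 2.40-fold, but the change of -1.14 ± 0.44 (log2, SE) did not pass (limma adjusted p = 0.104), and it was -0.42 without WT replicate 1, -1.86 without WT replicate 2 and -0.68 without GrnKO replicate 2.

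H2-Ab1 had the widest split between the WT pools, with 145 and 31.9 TMM-scaled tags in WT against 45.5 and 32.8 in GrnKO. WT replicate 2 was below both GrnKO pools. The ratio of 4.55 between the WT pools was reached or passed by 1.70% of tested genes, and that of H2-Aa, 2.75, by 4.34%. The change of -0.81 ± 0.53 (limma adjusted p = 0.362) turned to 0.27 without WT replicate 1.

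H2-Eb1 had 138 and 96.9 TMM-scaled tags in WT and 75.0 and 44.1 in GrnKO, with no overlap. It was called lower, by -0.99 ± 0.31 on the log2 scale (limma adjusted p = 0.0453). The call was lost in several settings: the adjusted p was 0.0697 without WT replicate 1, 0.421 without GrnKO replicate 2 and 0.0979 in the authors' scaling under limma, and 0.0544 in edgeR, where the change was -0.98. It was kept in DESeq2 (DESeq2 adjusted p = 0.0422), without WT replicate 2 (limma adjusted p = 0.000331), without GrnKO replicate 1 (limma adjusted p = 0.0393) and with only non-overlapping regions summed (limma adjusted p = 0.0338).

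Within these 3 genes, 16 of 17 regions were highest in WT replicate 1 after TMM, and 13 of 17 in the authors' scaling. None of their tested regions passed the test. The H2-Aa promoter at chr17:34287547-34288347, which covers the printed elements, was too low to be tested, with 33.2 and 4.45 TMM-scaled tags in WT and 1.98 and 3.92 in GrnKO. WT replicate 1 alone stood out there. In the first intron of H2-Aa (chr17:34286276-34287076) the pools did not overlap, with 32.8 and 17.8 in WT against 12.2 and 2.99 in GrnKO (-1.80 ± 0.63, limma adjusted p = 0.0816). The H2-Aa region with the most signal, intergenic at chr17:34295805-34296605, had 52.0 and 21.7 in WT and 32.8 and 14.1 in GrnKO, so that the genotypes overlapped.

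At the H2-Ab1 promoter (chr17:34262732-34263532) values were 34.8 and 8.38 TMM-scaled tags in WT and 8.48 and 4.15 in GrnKO. WT replicate 2 and GrnKO replicate 1 were level (-1.39 ± 0.69, limma adjusted p = 0.232). The 2 intergenic regions upstream, chr17:34257417-34258217 and chr17:34261378-34262178, had 39.5 and 32.8 in WT replicate 1 but 6.81 and 10.2 in WT replicate 2, and lay between 6.46 and 12.9 in GrnKO. Here too a single WT pool was high.

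Over the H2-Eb1 promoter elements (chr17:34305375-34306175) values were 37.5 and 17 TMM-scaled tags in WT and 14.1 and 3.92 in GrnKO. All 4 pools kept the order of the gene sum (-1.61 ± 0.61, limma adjusted p = 0.107). Overlapping regions in introns 1 and 2 of H2-Eb1 were steadier between the WT pools. At chr17:34309083-34309883 WT had 30.1 and 26.7 and GrnKO 17.3 and 14.5 (-0.80 ± 0.43, limma adjusted p = 0.265), and at chr17:34309519-34310319 WT had 26.6 and 27 and GrnKO 18.7 and 13.6.

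**Figure D2:**
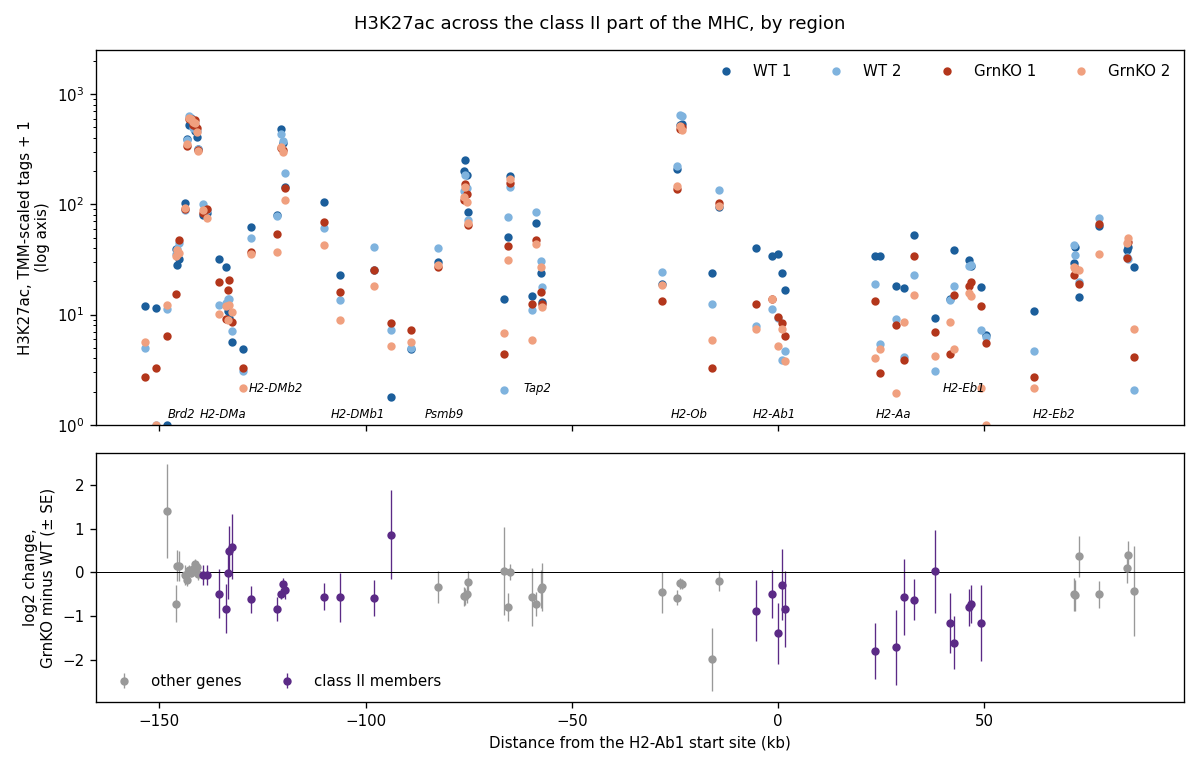
H3K27ac across the class II part of the MHC by distance from the H2-Ab1 start site in kb: TMM-scaled tags plus 1 per region and library on a log axis (top), and the log2 change with its SE for tested regions (bottom), members in purple and other genes in grey. The strongest member regions belong to H2-DMb2, and around H2-Ab1 and H2-Aa the WT replicate 1 points stand above the rest.

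Cd74, the invariant chain, changed most clearly. Its 12 regions on chromosome 18 summed to 592 and 402 TMM-scaled tags in WT and 237 and 291 in GrnKO. Both GrnKO pools lay below both WT pools, and the means differed 1.88-fold. The gene was called lower by -0.89 ± 0.19 on the log2 scale (limma adjusted p = 0.0063). It stayed called in the authors' scaling (-0.67, limma adjusted p = 0.0479), in edgeR (-0.91, edgeR adjusted p = 0.0084), and without WT replicate 1 (-0.61, limma adjusted p = 0.0048). Without GrnKO replicate 1 the change was -0.74 and the limma adjusted p 0.0679, and without the filter on low values or with input subtracted limma called none of the 8 genes.

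Of the 4 member regions called lower, 3 belong to Cd74 and the other to H2-DMb2. Over all 80728 tested regions 2.92% were called lower and 6.8% higher. Among the 57 member regions 45 passed the filter on low values, 0 were called higher, and 41 had a negative change, with a median of -0.58 (log2). Over all tested regions 50.1% were negative. Both GrnKO pools were below both WT pools in 21 of the 45 and above in 1, against 25.6% and 27% of all tested regions. In the authors' scaling 37 of 45 were negative, with a median of -0.37, beside 0.22 over all tested regions. Without WT replicate 1 it was 33 of 45, with a median of -0.29, beside -0.02 over all tested regions.

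The region with the lowest adjusted p was intergenic, 14392 bp upstream of the Cd74 start (chr18:60789057-60789857). It held 41.5 and 36.7 TMM-scaled tags in WT and 5.66 and 13.8 in GrnKO. The WT pools were close together and the GrnKO pools far below (-2.01 ± 0.49, limma adjusted p = 0.0130). The call held in the authors' scaling (-1.80, limma adjusted p = 0.0190) and without WT replicate 1 (-1.92), but not without GrnKO replicate 1 (limma adjusted p = 0.246).

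The first intron of Cd74 held the most signal of the gene. At chr18:60805517-60806317 WT had 82.5 and 51.3 TMM-scaled tags and GrnKO 25.2 and 33.2 (-1.14 ± 0.33, limma adjusted p = 0.0355). The overlapping region chr18:60805794-60806594 had 84.9 and 59.2 in WT and 30.0 and 40.1 in GrnKO (-1.01 ± 0.31, limma adjusted p = 0.0451). Both calls were lost without WT replicate 1 (limma adjusted p = 0.128 and 0.127), without either GrnKO pool, and in the authors' scaling. Farther into the intron the WT pools came together: chr18:60806295-60807095 had 95.4 and 90.9 in WT against 49.2 and 62.8 in GrnKO, and chr18:60807095-60807895 had 88.0 and 84.6 against 44.4 and 76.4. Neither passed (limma adjusted p = 0.0764 and 0.232).

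Around the Cd74 start WT replicate 1 was highest, as in the H2-Ab1 regions and at the H2-Aa promoter. At the promoter region centred 756 bp upstream (chr18:60802693-60803493) WT replicate 1 had 37.1 TMM-scaled tags, and WT replicate 2 and the GrnKO pools had 5.24, 7.08 and 6.92. The nearest region to the start (chr18:60803339-60804139) had 21.5 and 13.4 in WT against 12.2 and 10.8 in GrnKO (-0.53 ± 0.53, limma adjusted p = 0.603). Just downstream, at chr18:60803967-60804767, WT replicate 1 had 68.8 and the other 3 pools between 16.8 and 24.9.

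**Figure D3:**
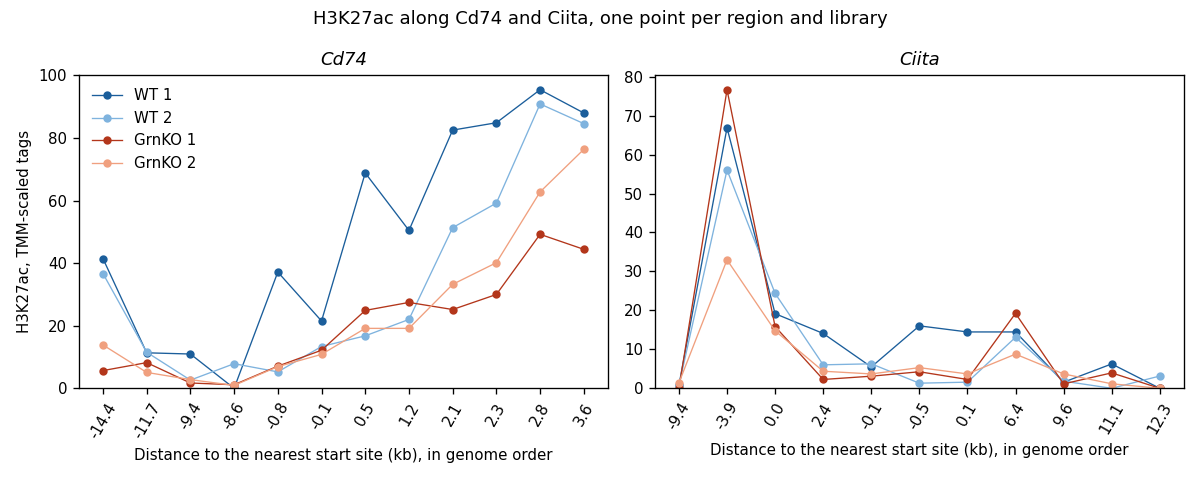
H3K27ac in TMM-scaled tags at each region of Cd74 (left) and Ciita (right), in genome order, labelled by distance to the nearest start site in kb, one line per library. At Cd74 the WT pools meet 14.4 kb upstream and at the far end of the first intron, and WT replicate 1 alone is high from 0.8 kb upstream to 1.2 kb downstream of the start; at Ciita only the region 3.9 kb upstream is strongly acetylated.

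H2-DM, made of H2-DMa and a beta chain from H2-DMb1 or H2-DMb2, edits the peptides of class II molecules. H2-DMb2 had 1128 and 1126 TMM-scaled tags in WT and 863 and 808 in GrnKO over 5 regions. The WT pools coincided and the GrnKO pools lay below them, a 1.35-fold difference in means. It was called lower by -0.43 ± 0.11 on the log2 scale (limma adjusted p = 0.0157), in edgeR (edgeR adjusted p = 0.0171) and without WT replicate 1 (limma adjusted p = 0.0037). The call was lost without GrnKO replicate 1 (limma adjusted p = 0.104) and without GrnKO replicate 2 (limma adjusted p = 0.197). In the authors' scaling the pools overlapped, at 931 and 1166 scaled tags in WT and 933 and 874 in GrnKO, and the change was -0.21 (limma adjusted p = 0.695).

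Of the H2-DMb2 signal 89.3% came from a block of 3 overlapping regions, which share tags, just upstream of the gene. The strongest, chr17:34142274-34143074, had 487 and 436 TMM-scaled tags in WT and 325 and 332 in GrnKO, and its mean over the 4 libraries exceeded that of 98.7% of all regions. It was called lower by -0.49 ± 0.13 (limma adjusted p = 0.0236), in the authors' scaling by -0.26 without a call (limma adjusted p = 0.643), and it lost the call without either GrnKO pool (limma adjusted p = 0.307 and 0.221). Its neighbours chr17:34142823-34143623 and chr17:34143224-34144024 had 357 and 372, and 143 and 191, in WT. In GrnKO they had 309 and 296, and 141 and 110, and neither passed (limma adjusted p = 0.241 and 0.239). The table annotates all 3 as intergenic, 1792 to 2742 bp upstream of the start it uses, whereas the RefSeq gene of GRCm38.p6 begins at 34143229 and falls inside the latter 2. No region of the table covers the X and Y boxes printed for H2-DMb2. Those boxes come from a RefSeq window at a later start (chr17:34144999-34145298), which lies inside the gene as counted from 34143229.

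H2-DMb1 had 152 and 119 TMM-scaled tags in WT and 115 and 71.1 in GrnKO. Both GrnKO pools lay below, WT replicate 2 and GrnKO replicate 1 by little (-0.57 ± 0.27, limma adjusted p = 0.196). Its promoter, chr17:34152741-34153541, which covers the printed elements, had 105 and 59.7 in WT and 68.2 and 42.0 in GrnKO, so the genotypes overlapped (limma adjusted p = 0.291). An intergenic region 12027 bp downstream of the start (chr17:34164818-34165618) had 24.2 and 40.1 in WT and 24.6 and 17.1 in GrnKO.

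H2-DMa was the member with the smallest change, 246 and 245 TMM-scaled tags in WT and 244 and 213 in GrnKO over 8 regions. The change was -0.11 ± 0.17 (limma adjusted p = 0.755), and its sign turned in the authors' scaling (0.12). Its strongest regions, chr17:34123302-34124102 in intron 1 and chr17:34124404-34125204 at a second annotated start, had 79.8 to 100 TMM-scaled tags in the WT pools and 74.3 to 90.5 in the GrnKO pools, so the genotypes overlapped. Another 3 regions annotated as the H2-DMa promoter are assigned by the table to its neighbour Brd2, a bromodomain gene that starts beside it, and are not in the sum. Their changes of 0.18, 0.13 and -0.03 (log2) did not pass either (limma adjusted p = 0.396, 0.598 and 0.924). A region annotated to exon 2 of the same H2-DMa transcript (chr17:34135157-34135957) is assigned to H2-DMb2 and counted there. It had 61.4 and 48.5 in WT and 36.2 and 34.1 in GrnKO (-0.62 ± 0.31, limma adjusted p = 0.233).

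Ciita, the coactivator without which class II genes are not transcribed, had 159 and 114 TMM-scaled tags in WT and 129 and 79.8 in GrnKO over 11 regions. The pools overlapped (-0.41 ± 0.27, limma adjusted p = 0.372). The change was -0.17 without WT replicate 1, -0.65 without WT replicate 2, -0.75 without GrnKO replicate 1 and -0.07 without GrnKO replicate 2. Input was high relative to this signal: it summed to 75.5 in the authors' scaling in GrnKO replicate 2, beside 86.4 for H3K27ac of the same pool, and 57.14 of that lay in 1 region of intron 2. Only 4 of the 11 regions passed the filter.

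Of the Ciita signal 48.8% came from 1 intergenic region 3934 bp upstream of the first start (chr16:10475738-10476538). It had 66.9 and 56.0 TMM-scaled tags in WT and 76.7 and 33.0 in GrnKO, and the GrnKO pools lay on both sides of the WT pools (-0.28 ± 0.34, limma adjusted p = 0.685). The promoter at that start (chr16:10479645-10480445) had 19.2 and 24.4 in WT and 15.8 and 14.8 in GrnKO, without overlap (-0.47 ± 0.46, limma adjusted p = 0.588). Ciita has several promoters that differ between cell types. The other promoter regions in the table were below the filter, the highest being chr16:10488920-10489720 with 16.0 in WT replicate 1, 1.31 in WT replicate 2 and 4.25 and 5.31 in GrnKO.

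**Figure D4:**
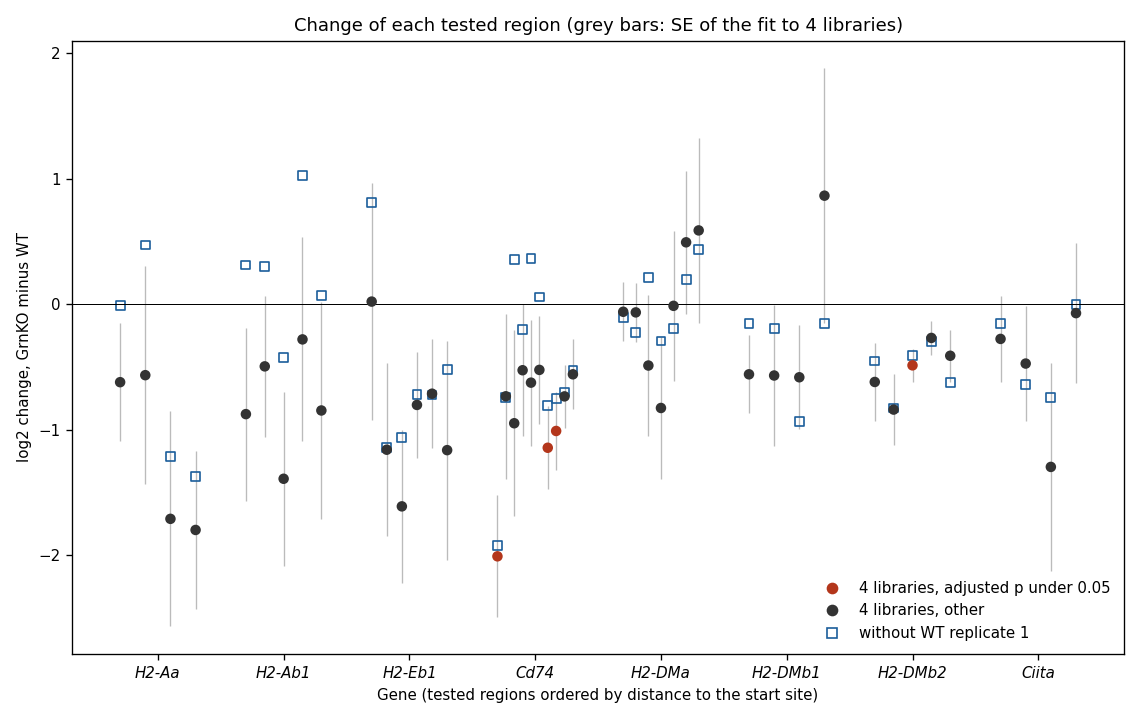
The log2 change (GrnKO minus WT) of each of the 45 tested member regions, grouped by gene and ordered by distance to the start site: filled points from all 4 libraries with the SE, red where the adjusted p is under 0.05, and open squares from the fit without WT replicate 1. Of the filled points 41 of 45 lie below 0, and of the squares 33 of 45, with the squares of H2-Ab1 mostly above 0.

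The sums under each setting show how each change moved with the scaling, the test and the library left out. The number of calls in fits that leave out 1 library moved over all tested genes too. A call kept or lost there does not show which library a member rests on. H2-Aa, H2-Ab1, H2-DMb1 and Ciita were called lower in the fit without WT replicate 2, where WT replicate 1 stands alone for its group, and H2-Aa also in DESeq2 and in the fit with a replicate block, which is not plotted (limma adjusted p = 0.0110). None of the settings plotted called H2-DMa. Cd74 and H2-DMb2 kept their calls without either WT pool.

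**Figure D5:**
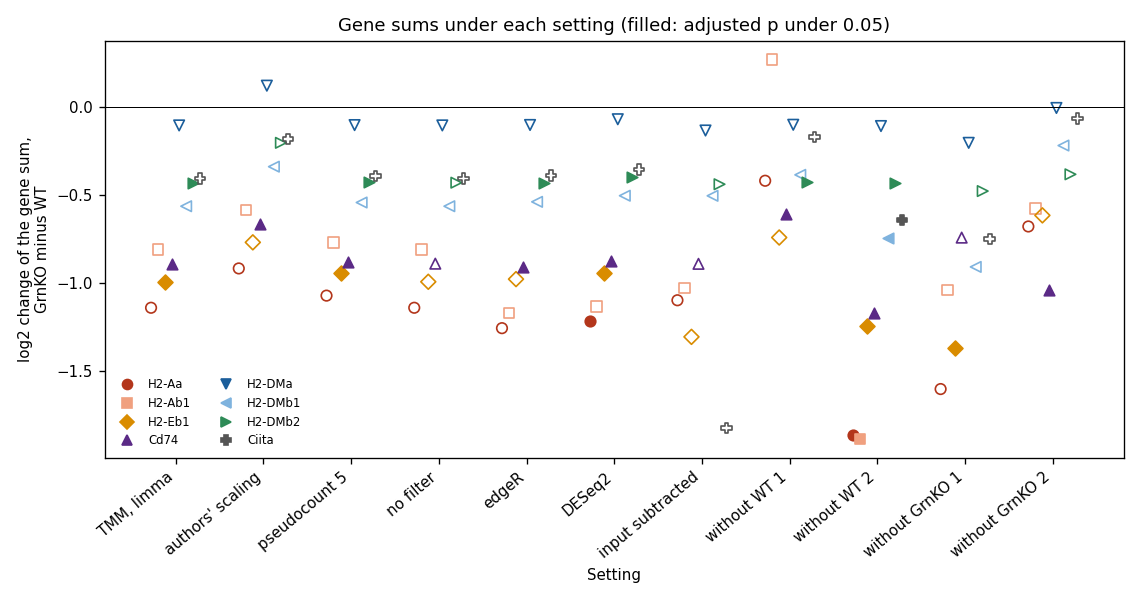
The log2 change of each member gene sum (GrnKO minus WT) under 11 settings, filled where the adjusted p is under 0.05 and open otherwise. H2-Ab1 is above 0 without WT replicate 1 and H2-DMa in the authors' scaling, and Cd74 stays below -0.6 in all 11.

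Other genes of the pathway were taken from a list of 29, of which 26 were in the table and tested. It held 1 gene called lower, Ifngr1, and 1 called higher, Cd4, against 5.88% and 8.59% of all genes. The median change of the 26 was -0.15 after TMM and 0.08 in the authors' scaling, so 19 and 7 of them were negative. Ifngr1, the ligand-binding chain of the interferon gamma receptor, had 4051 and 4493 TMM-scaled tags in WT and 3416 and 3318 in GrnKO, without overlap (-0.34 ± 0.08, limma adjusted p = 0.0107). That call was lost in the authors' scaling (-0.12) and without either GrnKO pool (limma adjusted p = 0.0898 and 0.126). Cd4, which encodes the T cell coreceptor that binds class II, had 138 and 137 in WT and 255 and 274 in GrnKO (0.94 ± 0.18, limma adjusted p = 0.0034). It was also called higher in the authors' scaling (1.17), and without GrnKO replicate 2 the limma adjusted p was 0.0693.

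Of the genes named by rule from this list, the other 4 described here were not called. Rfx5, a subunit of the X box factor, had 171 and 146 TMM-scaled tags in WT and 124 and 128 in GrnKO (-0.33 ± 0.21, limma adjusted p = 0.351). Irf1, a transcription factor induced by interferon gamma, changed by -0.13 on the log2 scale (limma adjusted p = 0.476). Ctss, the protease that removes the invariant chain, changed by -0.19, and Ifi30, the lysosomal thiol reductase that unfolds antigens, by -0.15 (limma adjusted p = 0.222 and 0.318).

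MHC class I genes are set beside the members because several lie in the same stretch of chromosome 17. Of 9 class I presentation genes, 0 were called lower and 1, H2-D1, higher (0.62 ± 0.19, limma adjusted p = 0.0468); edgeR called none higher (edgeR adjusted p = 0.0580 for H2-D1), and H2-D1 lost its limma call without WT replicate 1 (limma adjusted p = 0.119) and without either GrnKO pool. Their median change was -0.20 after TMM and 0.03 in the authors' scaling. Psmb9, an immunoproteasome subunit, and Tap1, a peptide transporter, lie between H2-DMb1 and H2-Ab1. Psmb9 had 488 and 358 TMM-scaled tags in WT and 291 and 290 in GrnKO (-0.52 ± 0.17, limma adjusted p = 0.0558), and Tap1 had 267 and 210 against 189 and 171 (-0.40 ± 0.19, limma adjusted p = 0.197). Both had WT replicate 1 highest and the GrnKO pools below both WT pools.

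Markers of microglia and of other cells that the gate could hold were measured in the same libraries. All 9 microglial markers were acetylated, and 6 of 9 were called lower after TMM and 0 of 9 in the authors' scaling. Over all tested genes 5.88% were called lower after TMM and 1.08% in the authors' scaling. The microglial markers summed to 52073 and 56961 TMM-scaled tags in WT and 43097 and 45401 in GrnKO. The member sums together were 2713 and 2190 TMM-scaled tags in WT and 1766 and 1569 in GrnKO, in replicate order. Dendritic cell markers shared their direction but not the order within each genotype, with 3566 and 4059 in WT and 2543 and 2785 in GrnKO. Of 6 tested dendritic cell markers 4 were called lower (Flt3, Xcr1, Siglecg and Ccr7), and 2 of 6 in the authors' scaling. Cd209a and Klrd1 of that list were at or near 0. Monocyte markers summed to 592 to 605 in WT and 367 to 461 in GrnKO, with Ccr2 called lower of 2 tested and Ly6c2 near 0. The part of these cells in the class II result was not tested.

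Markers of border macrophages, the brain myeloid cells that carry much class II, did not move with the members. Of 9 tested, 0 were called lower and 2, Ms4a7 (1.60) and Siglec1 (0.55), higher on the log2 scale. The 9 were split, with 4 negative changes and a median of 0.03 (log2) after TMM. The sum of the list was 4400 to 4669 in WT and 5289 to 5490 in GrnKO. B cell markers summed to 876 to 951 in WT and 1387 to 1481 in GrnKO, but they were split. Of 4 tested, 2 were called higher (Ms4a1 and Cd22) and 2 had a negative change after TMM without a call, and Pax5 was at or near 0. Of 2 T cell and 3 astrocyte markers tested 0 were called, of 3 neuronal markers 1 was lower (Syt1), and of 3 oligodendrocyte markers 1 was higher (Mbp) and 1 lower (Mog).

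The centred profile of the members over the 4 H3K27ac libraries, as the mean of their log2 sums, was 0.68 and -0.01 in WT and -0.12 and -0.55 in GrnKO. Among all other tested genes the 5 closest to it by root mean square difference were Rab6a (0.029), Cdiptos (0.048), Setmar (0.051), Ctnnal1 (0.052) and Arhgap29 (0.055), over those 4 libraries. None of the 5 was called, with changes from -0.58 to -0.77 on the log2 scale. The likeness is over 4 values only.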

How the data were processed

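The authors deposited 1 table of 800 bp regions from a merged list of ATAC-seq peaks with, per the file headers, gene annotation and values scaled to 10000000 tags per library. The unit is therefore a signal as deposited. Per the submitters' processing notes, Bowtie2, HOMER, DESeq2 and the mm10 build were used, and versions and duplicate handling are not given in the sources used here. Multiplied by the total of its library, 100% of values in each of 8 columns gave a whole number of read ends (tolerance 0.01).

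The members and lists were chosen with earlier results of these data known. Regions and sums per gene over the 4 H3K27ac libraries were fitted with limma 3.58.1 (R 4.3.3; eBayes with trend) on log2(TMM-scaled value + 1), after edgeR's filterByExpr with a minimum of 10 tags. That left 80728 regions and 15380 genes, over which p-values were adjusted (Benjamini-Hochberg, threshold 0.05). Fold changes of low regions are understated on that scale. Errors after a change are standard errors of the fit. Input stayed out of the fit. edgeR 4.0.16 (quasi-likelihood) and DESeq2 1.42.0 were run on recovered reads, where edgeR called 868 genes lower and 1275 higher. With 2 pools a group, p-values rest on the spread between these pools. In limma the spread of each feature is drawn toward a trend over all tested features (eBayes). It is therefore not that of the feature's own pools alone. In data simulated on these libraries, limma called 17.3% of genes given a log2 change of 1 and 92.2% given one of 2. For regions it called 1.96% and 53.1%. Every feature had the same dispersion (spread beyond counting error) there. Only 102 and 98 of the 80728 regions were given those changes, so rates in the real data may differ.

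Members were named in full, and regions if called, if among the 2 with most signal of a gene, or if nearest its start. Others named were chosen after their values were seen. No molecular identifiers are named, so depth speaks to counting error only. The pathway list's H2-Ea and 2 March genes were not matched by symbol. Some list members are not reported here.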

Additional observations from a re-analysis of the deposited data

Results flagged for a closer look

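Input chromatin, which stayed out of the comparisons, was above the level that 3 tags allow and above the H3K27ac value of the same pool in 15 of 228 pairs of a member region and a pool. These pairs fell in 13 regions, of which 5 had been tested, and 8 of the 15 were in Ciita. All values here are in the authors' scaling, input first and then H3K27ac.

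The largest was the Ciita region at 10495783 in GrnKO replicate 2, with 57.14 against 9.49. The other Ciita pairs were 29.41 against 1.90 (10498992, WT replicate 2), 18.38 against 3.36 and 18.37 against 3.99 (10487684, GrnKO replicates 1 and 2), 11.23 against 0.81 and 11.1 against 0 (10470314, WT replicate 2 and GrnKO replicate 1), 9.71 against 0 (10501673, GrnKO replicate 1) and 4.16 against 2.45 (10489443, GrnKO replicate 1). The remaining 7 were all in GrnKO replicate 1, the most deeply sequenced input. They were H2-Ab1 34257417 with 18.73 against 12.54, H2-Eb1 34312059 with 12.49 against 11.93, H2-Aa 34293313 with 6.94 against 3.06, and H2-Eb1 34304518 with 4.86 against 3.67. The rest were Cd74 60794855 with 5.55 against 1.22, Cd74 60794084 with 2.77 against 1.83, and H2-DMa 34133066 with 2.77 against 2.45. None of the regions called lower was among them.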

How the results depend on the processing

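The 4 regions, 3 genes and 1 pathway gene called lower became 1, 1 and 0 in the authors' scaling, 0, 0 and 0 without a filter on low values, and 0, 0 and 0 with input subtracted. At an unadjusted p under 0.05 limma had 5, 3 and 0, then 8, 3 and 4, then 5, 2 and 4 lower, and edgeR called 3, 2 and 1. An adjusted p under 0.1 gave 7 regions and 2 pathway genes. Sums of regions within 1000 bp of a start gave 0 of 6 genes (1 at an unadjusted p under 0.05). Leaving out each library in turn gave 0 to 15 regions, 1 to 7 genes and 0 to 4 pathway genes. Those fits hold 1 pool in a group, and in them the number called lower also moved over all tested regions and over all tested genes. The movement is thus not limited to the members. Its cause was not tested.

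Over all 80728 tested regions same-numbered pools did not deviate together (r = 0.03). At the members the ratio of replicate 1 to replicate 2 after TMM was 1.00 to 4.55 in WT. In GrnKO it was 0.81 in Cd74 and 1.07 to 1.93 in the others. The medians over all tested genes were 1.02 in WT and 0.995 in GrnKO. Whether same-numbered pools deviate together at the members was not tested. The fit with a replicate block gave 8 regions, 4 genes (H2-Aa in addition to the 3) and 2 pathway genes.

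Directions turned in 10 cases. Over fits that leave out 1 library, H2-Ab1 ran from -1.89 (without WT replicate 2) to 0.27 (without WT replicate 1), its region 34257417 from -2.06 to 0.31 and its region 34261378 from -1.29 to 0.30 in the same fits. The Ciita region 10475738 ran from -0.87 (without GrnKO replicate 1) to 0.32 (without GrnKO replicate 2), and the H2-DMa region 34124404 from -0.20 to 0.081 in those fits. The H2-DMa region 34123302 ran from -0.23 (without WT replicate 1) to 0.096 (without WT replicate 2). In the authors' scaling H2-DMa (0.12) and its regions 34123302 and 34124404 (both 0.16) turned, and with input subtracted 34124404 did (0.062). Of the remaining alternatives for single genes and regions, 297 kept direction and call, 39 lost a call and 17 gained one. In the simulated data changes of 1 on the log2 scale were seldom called at single regions. Those data had the same dispersion for every region and few changed regions, so rates in the real data may differ.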
